A study of Homo sapiens with 6 samples.

Results

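Circular RNAs (circRNAs) of numbered zinc finger genes were described in Ishikawa, a cell line from a human endometrial carcinoma. Members were all circRNAs whose host gene in the authors' table was named ZNF, a number and at most 1 further letter. The rule used names only and took 98 of 4814 circRNAs, from 63 of 2531 host genes. They held 785 of 26060 back-splice junction reads, or 3.01% of the reads in 2.04% of the circRNAs. The study has 3 libraries of Ishikawa cells given MPA and 3 control libraries of Ishikawa cells whose treatment is listed as none. The labels do not spell out MPA and state neither its dose nor its duration, and nothing in them ties the libraries to separate cultures. The spread behind each p-value below is that between libraries, and it may be technical.

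Most ZNF genes encode proteins with C2H2 zinc fingers, short units in which a pair of cysteines and a pair of histidines hold a zinc ion and adjacent residues contact DNA. Many of them carry a KRAB domain near the amino terminus, which binds the corepressor TRIM28 and through it recruits histone H3 lysine 9 methylation. KRAB zinc finger genes lie in clusters, above all on chromosome 19, arose largely by duplication, and are best known for silencing retrotransposons. In a typical KRAB zinc finger gene the 2 boxes of the KRAB domain are encoded by a pair of short internal exons and the whole finger array by the last exon. A circRNA forms when splicing joins an exon's end to the start of the same or an upstream exon, and a junction read is a read across that joint.

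The coding sequences bore out the name for most hosts. A complete coding transcript was found in GENCODE release 29 for 62 of the 63 hosts, the pseudogene-named ZNF876P being the exception. Translated, 59 of the 62 matched a C2H2 finger pattern (C, 2 to 4 residues, C, 12 residues, H, 3 to 5 residues, H or C) at least 1 time in their longest coding sequence. The median host had 10 fingers, 52 hosts had 5 or more, and ZNF208 had the most, 36. ZNF720, ZNF738 and ZNF839 had none in that sequence. A narrow KRAB pattern (F, 3 residues, EW, 5 to 25 residues, then Y, 2 residues, V or M, and M) was found in 34 hosts, 24 of the 27 on chromosome 19 and 10 of the 35 elsewhere. A host without a match may still have a KRAB domain of other letters.

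Exonic ZNF circles had a shorter median length than those of other hosts, and some of them were built from the KRAB exons. Of the 98 circRNAs, 65 (66.3%) were classed by the authors as exonic, against 4238 (89.9%) of the circRNAs of other hosts. The sense overlapping class held 25 (25.5%) against 390 (8.27%), and the intronic class 8 (8.16%) against 73 (1.55%). All 25 sense overlapping members had a predicted length equal to their genomic span, with a median of 9370 bases. The same held for all 390 of other hosts, with a median of 14926 bases. Chromosome 19 gave 33 (33.7%) of the ZNF circRNAs, from 27 hosts, against 86 (1.82%) of the others. The median predicted length of exonic circRNAs was 402 bases (quartiles 278 and 900) for ZNF hosts and 553 bases (quartiles 360 and 927) for other hosts. These shares are descriptions and were not tested.

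The most frequent exon in the ZNF circles was 127 bases long, and the exon that most often followed it was 96 bases long. Exons could be assigned, by gene name, span and predicted length, to 63 of the 65 exonic ZNF circRNAs and to 3931 of the 4238 exonic circRNAs of other hosts. Exons were counted here by length alone, so that 127-base exons of ZNF451, a host without the KRAB match, are included. An exon of 127 bases was in 25 (39.7%) of the 63 ZNF circles and in 155 (3.94%) of the matched circles of other hosts. A 96-base exon followed it in 13 against 4. Exactly these 2 exons, 223 bases in all, made up 8 (12.3%) of the 65 exonic ZNF circles. Among the other hosts 6 exonic circRNAs (0.142%) had this length, and 0 of them had this exon pair. The 8 hosts were ZNF74, ZNF98, ZNF208, ZNF268, ZNF274, ZNF649, ZNF720 and ZNF730. The ZNF730 circle had 28 of the 57 reads of these circles. ZNF720 and ZNF268 had 7 reads each, 6 of those of ZNF268 in MPA library 2, and ZNF74 had 4. The circles of ZNF98, ZNF208, ZNF274 and ZNF649 had 2 or 3 reads each, all in 1 library, so they are weakly established. ZNF274 is known for bringing the H3 lysine 9 methyltransferase SETDB1 to the 3′ ends of other zinc finger genes.

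The back-splice junctions of these 8 circles are shown because they join the same pair of exons in different genes, and because a junction read is assigned to a gene by such bases. Each line gives 30 bases, 5′ to 3′ in transcript sense. The 15 lower-case bases are the end of the 96-base exon and the 15 capitals the start of the 127-base exon. The sequences are from GENCODE release 29 transcripts, and the coordinates are those of the authors' table on hg19.
ZNF730 hsa_circ_0008122, chr19:23316882-23318845, plus strand: tagccaaacccccagGGAGCGTTGACATTT
ZNF98, no circBase identifier, chr19:22585591-22586314, minus strand: taactgaacccccagGGAGTGTTGACATTT
ZNF208, no circBase identifier, chr19:22170018-22171711, minus strand: tggaagaatccccagGGATCATTGACATTT
ZNF720 hsa_circ_0007059, chr16:31733947-31734674, plus strand: tagccatccagccagGGACTGTTGACATTC
ZNF268 hsa_circ_0029596, chr12:133768075-133768589, plus strand: atcagacctgtccaaGGACCTTTGTCATTC
ZNF649, no circBase identifier, chr19:52399725-52400231, minus strand: gtccagcccacccagGAATCACTGACCCTG
ZNF274 hsa_circ_0052323, chr19:58697079-58698409, plus strand: aagacaccattccagGAACCAGTGACCTTT
ZNF74 hsa_circ_0062317, chr22:20754922-20755662, plus strand: gagggccctgtccagGAATCGGTGAGTTTC

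Across the 8 junctions, 8 of the 30 positions held the same base in every circle, 3 before and 5 after the joint. The 96-base exon ended in AG in 7 of them. The 127-base exon began with GGA in 5 and with GAA in 3. Between pairs of circles the 30 bases differed at 4 to 17 positions (median 13, 28 pairs), with the fewest differences between ZNF730 and ZNF98. Over the whole 223 bases identity ran from 54.7% to 90.6% (median 60.3%). It ran from 61.4% to 93.7% in the 127-base exon and from 40.6% to 89.6% in the 96-base exon. An exact copy of the circle in a transcript of another GENCODE gene was found for ZNF268 only, in AC026786.1. Whether that gene overlaps ZNF268 was not checked, so the placing of the ZNF268 reads is not certain. The handling of reads that match several genes is not stated in the sources used here, which limits the reads of close relatives such as ZNF98, ZNF208 and ZNF730.

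The whole circle of ZNF730, the member of this group with the most reads, is shown as the example of the shared build, with the 127-base exon in capitals and the 96-base exon in lower case.
ZNF730 hsa_circ_0008122: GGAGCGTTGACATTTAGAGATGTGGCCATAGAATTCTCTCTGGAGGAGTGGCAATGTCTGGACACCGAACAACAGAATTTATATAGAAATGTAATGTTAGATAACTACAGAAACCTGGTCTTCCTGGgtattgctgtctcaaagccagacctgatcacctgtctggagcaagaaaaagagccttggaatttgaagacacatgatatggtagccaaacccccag

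**Figure D1:**
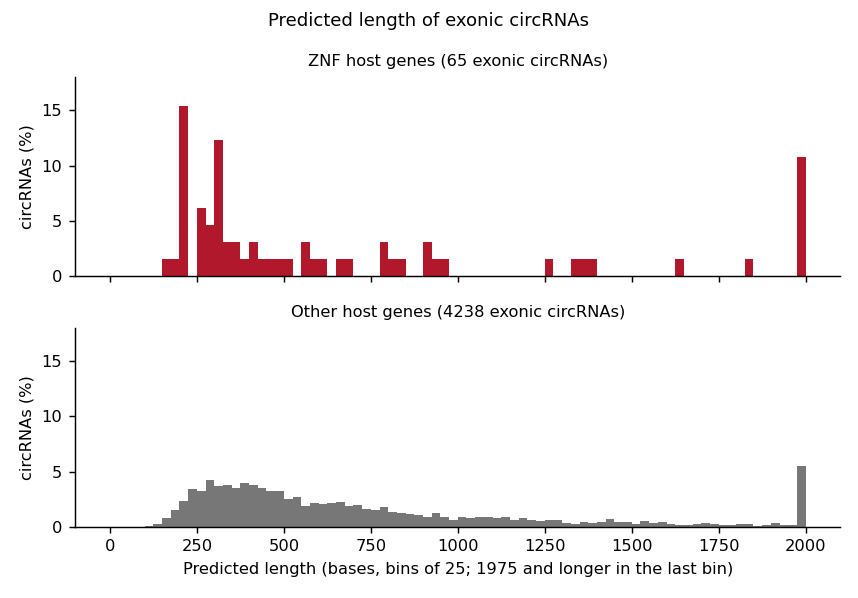
Predicted length in bases (x axis, bins of 25) of exonic circRNAs of ZNF hosts (top, 65) and of other hosts (bottom, 4238), as a percentage of the circRNAs in each panel (y axis); the last bin gathers longer circles. The tallest ZNF bar includes the 8 circles of 223 bases, where the other hosts show no peak, and the median is 402 bases above against 553 bases below.

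No assigned circle of a KRAB-pattern transcript held a finger. Of 62 ZNF circles assigned to coding transcripts, 19 held the KRAB pattern, against 0 of 3857 circles of other hosts. How many of the other hosts encode the pattern at all was not counted, so this contrast does not show which exons form circles. In transcripts with the KRAB pattern, 19 of 21 circles held that pattern and 0 held a complete finger. In transcripts without it, 19 of 41 circles held at least 1 finger. None of the 63 ZNF circles contained the first or the last exon of its transcript. Of the 3933 matched circles of other hosts, 9 held the first and 4 the last exon. A finger array encoded by the last exon cannot lie in a circle without that exon. The 0 circles with a finger in KRAB-pattern transcripts therefore follow from that layout where it holds. Exon 2 was the first exon of 36 (57.1%) of the ZNF circles, against 1180 (30.0%) of the matched circles of other hosts. The start codon was in 22 (35.5%) of the ZNF circles and in 553 (14.3%) of the others, and 39 (62.9%) were coding throughout, against 84.9%.

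Library totals ran from 3740 to 5454 junction reads. A count of 0 in the smallest library allows a share of up to 0.0802% (3 counts, counting error only). Total RNA depth is not stated in the sources used here, and in such bulk libraries fewer cells and less RNA per cell cannot be told apart. Of the marker lists, 3 of 10 epithelial genes (CDH1, PAX8 and EPCAM) gave circRNAs, with 7 reads in MPA and 1 read in control libraries. The stromal list gave 1 of 7 (FBN1, 2 and 1 reads) and the blood and endothelial list 0 of 6, so junction reads check the cell type only weakly, and the part of other cells in the ZNF values was not tested.

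ZNF circRNAs together took overlapping shares of the junction reads in the 2 groups. MPA libraries 1 to 3 held 135, 155 and 162 ZNF reads, and control libraries 1 to 3 held 134, 118 and 81. As shares of the library these were 3.02%, 3.57% and 2.97% with MPA against 3.10%, 3.16% and 2.16% in control. The MPA mean was 3.19% ± 0.334 and the control mean 2.81% ± 0.558 (SD, n = 3 each). The groups overlapped, with control library 3 lowest. The difference was 0.380 percentage points, and 0.0581 without control library 3. The pooled share with MPA was 1.12 times that in control, with an exact 95% interval of 0.973 to 1.30 that covers counting error only. The number of ZNF circRNAs with a read was 39, 50 and 50 in MPA against 45, 38 and 35 in control libraries. Thinned to the smallest library, it was 43.2 ± 5.22 against 38.6 ± 3.99 (SD, n = 3 each), also with overlap.

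Shares of hosts with the KRAB pattern did not overlap between the groups, and shares of hosts without it did. The 42 circRNAs of the 34 hosts with the pattern took 1.54%, 1.73% and 1.60% of the reads in MPA libraries against 1.27%, 1.12% and 1.26% in control. Every MPA library lay above every control library (1.62% ± 0.0951 against 1.22% ± 0.0825, SD, n = 3 each). The 56 circRNAs of the other 29 hosts took 1.48%, 1.84% and 1.38% against 1.83%, 2.03% and 0.908%, with full overlap. The pooled MPA share was 1.33 times the control share for hosts with the pattern (95% counting interval 1.07 to 1.65) and 0.967 times for hosts without it (0.793 to 1.18). This split was chosen after the data had been seen, so no test was made of it or of the difference between the sets. Leaving out ZNF124, the host with the most reads, gave 1.03%, 1.36% and 1.05% with MPA against 0.996%, 0.829% and 0.775% in control (ratio 1.30, counting interval 1.01 to 1.68).

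**Figure D2:**
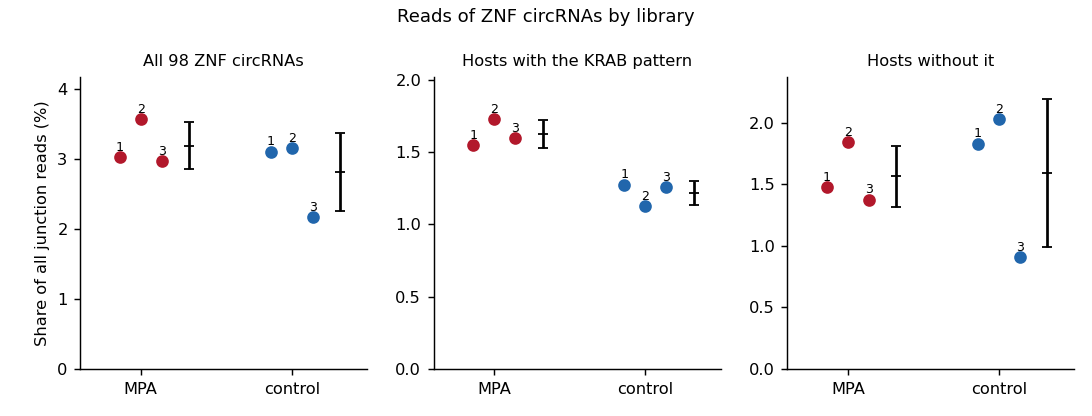
Share of all junction reads (y axes, %, each panel with its own scale from 0) in MPA libraries (left in each panel) and control libraries (right), for all 98 ZNF circRNAs, hosts with the KRAB pattern and hosts without it; numbered points are libraries, bars the mean and SD (n = 3 each). The groups are apart in the middle panel (1.54% to 1.73% against 1.12% to 1.27%) and overlap in the other panels, where control library 3 is lowest.

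Within the hosts with the KRAB pattern the pooled ratio was above 1 in each class. It was 1.39 for exonic (counting interval 1.01 to 1.92), 1.30 for sense overlapping (0.920 to 1.85) and 1.22 for intronic circRNAs (0.700 to 2.17). For sense overlapping and intronic circRNAs the interval includes 1. The 24 exonic circRNAs of these hosts took 0.739%, 0.876% and 0.697% with MPA against 0.602%, 0.642% and 0.401% in control, without overlap. Their 13 sense overlapping circRNAs took 0.627%, 0.576% and 0.642% against 0.487%, 0.374% and 0.561%, again without overlap. Their 5 intronic circRNAs took 0.179%, 0.277% and 0.257% against 0.185%, 0.107% and 0.294% and overlapped. Of the 144 reads of the sense overlapping set, 95 were of hsa_circ_0112879 of ZNF124. Without the circRNAs of ZNF124 the groups overlapped in the exonic and in the sense overlapping class as well. The 19 circles that hold the KRAB pattern had 33, 30 and 34 reads with MPA against 23, 23 and 13 in control (share ratio 1.36, counting interval 0.974 to 1.91). The 8 circles of 223 bases had 5, 17 and 11 against 8, 10 and 6 reads, which overlap (ratio 1.14, 0.652 to 2.01). The 19 circles with a finger had 22, 37 and 26 against 39, 41 and 11 (ratio 0.773, 0.568 to 1.05). Here control library 3 lay far below the other control libraries.

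By class, the 65 exonic ZNF circRNAs took 1.79%, 2.19% and 1.65% of the reads with MPA against 2.06%, 2.35% and 1.15% in control, with overlap (pooled ratio 0.997, counting interval 0.830 to 1.20). The ratio for exonic circRNAs of other hosts was 0.996. For intronic circRNAs it lay above 1 in ZNF hosts and below 1 in other hosts. The 8 of ZNF hosts took 0.358%, 0.530% and 0.440% with MPA against 0.278%, 0.214% and 0.427% in control (pooled ratio 1.45, counting interval 0.947 to 2.25). The 73 of other hosts took 0.806%, 0.853% and 0.550% against 1.30%, 1.20% and 1.28%, every MPA library being the lower (ratio 0.572, 0.441 to 0.740). The difference between the sets was noticed in the values and was not tested. Sense overlapping ZNF circRNAs took 0.873%, 0.853% and 0.880% against 0.765%, 0.588% and 0.588% (ratio 1.33, 0.995 to 1.79). Those of other hosts took 5.21%, 5.42% and 4.86% against 4.15%, 4.79% and 4.92% (ratio 1.12), so the groups overlapped there. Without ZNF124 the sense overlapping ZNF circRNAs overlapped too, at 0.448%, 0.553% and 0.422% with MPA against 0.510%, 0.294% and 0.160% in control.

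No ZNF circRNA and no ZNF host gene passed the test of MPA against control. The table was fitted whole with edgeR's quasi-likelihood test, and a circRNA or host was tested where its mean was at least 5 reads over the 6 libraries. Of the 98 ZNF circRNAs 5 passed this filter, and 0 were called at an FDR of 0.05, beside 0 of all 91 circRNAs tested (0%). Of the 63 ZNF hosts 5 passed, with 0 called, beside 0 of 180 (0%). At an unadjusted edgeR p under 0.05 there were 0 ZNF circRNAs and 0 ZNF hosts, beside 2 of 91 (2.2%) and 3 of 180 (1.67%). DESeq2 gave 0 ZNF calls at either level, and 0 ZNF circRNAs or hosts at an unadjusted p under 0.05. The median log2 fold change was -0.05 for the 5 ZNF circRNAs and 0.14 for all 91, and -0.12 for the 5 ZNF hosts and 0.03 for all 180. The 95% intervals excluded a 4-fold change for 5 of the 5 ZNF circRNAs and a 2-fold change for 0.

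A filter at a mean of at least 2 reads admitted 17 ZNF circRNAs and 17 ZNF hosts. With edgeR 0 of each were called, beside 0 of 382 circRNAs (0%) and 0 of 565 hosts (0%). An unadjusted edgeR p under 0.05 was reached by 1 of the 17 ZNF circRNAs, beside 12 of 382 (3.14%), and by 0 of the 17 ZNF hosts, beside 19 of 565 (3.36%). Shares did not overlap in 2 of the 17 ZNF circRNAs with MPA higher (all circRNAs 3.66%) and in 1 with MPA lower (4.97%). Among hosts this was so in 1 of 17 with MPA higher (4.6%) and in 0 with MPA lower (3.89%). Counts of 0 to 2 members cannot be set apart from the shares of the whole table.

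ZNF124, a KRAB zinc finger gene with 8 fingers, had the most reads of the ZNF hosts. Its 2 circRNAs had 23, 16 and 30 reads in MPA libraries against 12, 11 and 18 in control. MPA library 2 lay below control library 3, so the groups overlapped. The log2 fold change was 0.51 (SE 0.348, edgeR adjusted p = 0.946). Both circles leave from the same point, the start of its 127-base exon. The larger share came from hsa_circ_0112879 (chr1:247319708-247323115, minus strand, sense overlapping, 3408 bases), at 19, 13 and 25 reads with MPA against 11, 11 and 16 in control (log2 fold change 0.35, SE 0.412, edgeR adjusted p = 0.936). The smaller hsa_circ_0017348 (chr1:247322308-247323115), made of the 127-base exon and a 61-base exon, had 4, 3 and 5 reads against 1, 0 and 2. It is 1 of the 2 ZNF circRNAs past the filter of 2 reads that did not overlap with MPA higher, and its log2 fold change was 1.71 (SE 1.09, edgeR adjusted p = 0.994 at the filter of 2 reads).

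ZNF91, known as a repressor of SVA retrotransposons, was the host that did not overlap with MPA higher. Its 1 circRNA, the intronic hsa_circ_0109315 (chr19:23541232-23545527, minus strand), had 6, 7 and 6 reads with MPA against 4, 0 and 3 in control. The host log2 fold change was 1.14 (SE 0.858, edgeR adjusted p = 0.987 at the filter of 2 reads), which did not pass. The ZNF91 protein matched the finger pattern 32 times and the KRAB pattern.

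The other chromosome 19 hosts with the most reads, tested at the filter of 2 reads, gave circles of the KRAB exons or of an intron. ZNF730 had 2, 4 and 6 reads of its 223-base circle with MPA against 5, 7 and 4 in control (log2 fold change -0.68, SE 0.772). ZNF208 had 6, 2 and 1 reads against 9, 5 and 3 (-1.13, SE 0.821). Nearly all of these came from hsa_circ_0109301, the same exon pair and a further 79-base exon. The groups overlapped for both genes, and the edgeR adjusted p of each was 0.987. ZNF587 had 2, 5 and 7 reads against 2, 3 and 6 over 3 intronic circles that end at the same base. Its log2 fold change was 0.06 (SE 0.837, edgeR adjusted p = 0.996).

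**Figure D3:**
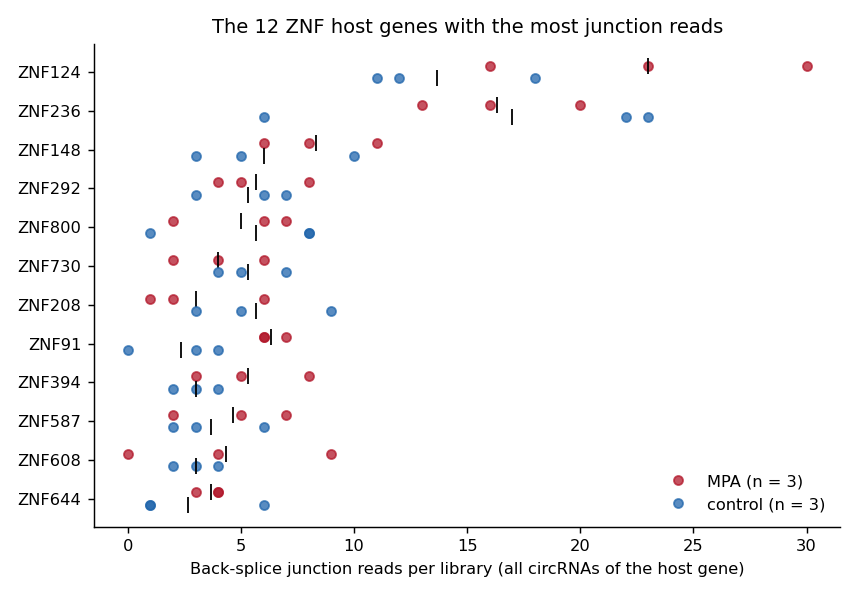
Junction reads per library (x axis) for the 12 ZNF hosts with the most reads, in order of their total; MPA libraries are drawn above control libraries in each row, and vertical ticks are means (n = 3 each). The rows overlap except ZNF91, with 6, 7 and 6 reads with MPA against 4, 0 and 3 in control, and ZNF124 reaches the highest count, 30.

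ZNF236 gave the most circles of any ZNF host, 9, and a spread of ends behind a common start. Its protein matched the finger pattern 30 times and had no KRAB match. 6 of the 9 circRNAs started at base 74561482 of chromosome 18, the first base of exon 2, and held 90 of the 100 reads. Another 2, with 8 reads, started 96 bases further on. The circles from the common start ended after exons 3, 4, 5, 7, 9 and 21 of 31 and held 3, 5, 6, 9, 9 and 23 complete fingers. The junctions of the 3 with the most reads are shown because their capitals, the first 15 bases of exon 2, are the same and only the lower-case end differs (GENCODE release 29, plus strand, hg19 coordinates from the authors' table).
ZNF236 hsa_circ_0004979, exons 2 to 3, chr18:74561482-74563895: catgaaaaggaagagATGGAGTTTTAACAT
ZNF236 hsa_circ_0001993, exons 2 to 5, chr18:74561482-74583781: ttaggatacacacagATGGAGTTTTAACAT
ZNF236 hsa_circ_0000857, exons 2 to 9, chr18:74561482-74593468: caccgtttctacctgATGGAGTTTTAACAT

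Summed, ZNF236 had 13, 16 and 20 reads with MPA against 23, 22 and 6 in control, and control library 3 lay below all the others (log2 fold change -0.28, SE 0.357, edgeR adjusted p = 0.946). The circle of exons 2 to 9 had 5, 7 and 6 reads against 10, 7 and 1 (log2 fold change -0.24, SE 0.631). The circle of exons 2 to 3 had 6, 5 and 8 against 7, 6 and 1 (0.19, SE 0.659). In both the groups overlapped, and the edgeR adjusted p was 0.936. The circle of exons 2 to 5 had 0, 1 and 0 reads with MPA against 4, 4 and 3 in control, without overlap. Its log2 fold change at the filter of 2 reads was -3.19 (SE 1.41, edgeR adjusted p = 0.994), so it did not pass. This circle was singled out after its values were seen, and it is the ZNF circRNA with the unadjusted p under 0.05. The other circle with the same end, from the start 96 bases on, had 0, 0 and 5 reads with MPA against 0, 1 and 0 in control.

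**Figure D4:**
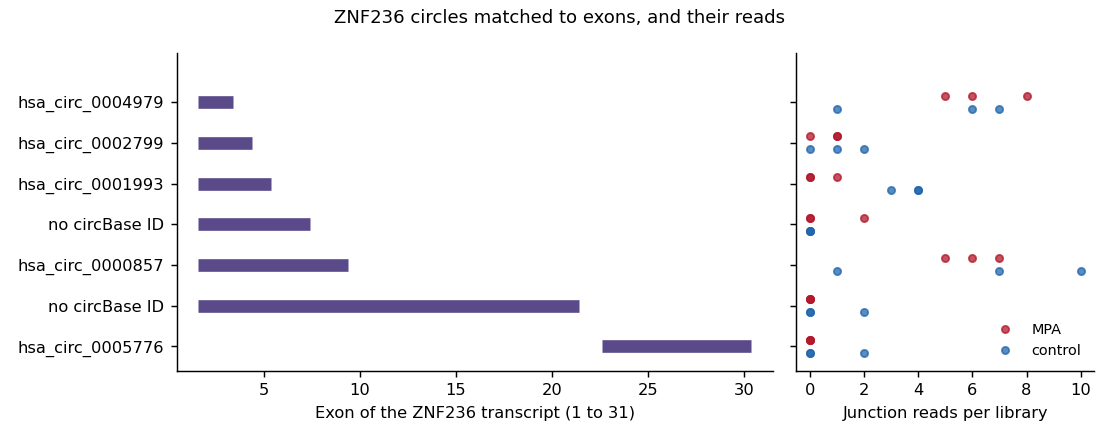
Left, the 7 ZNF236 circles assigned to exons (x axis, exon number of a transcript of 31 exons). Right, their junction reads per library (x axis), with MPA libraries above control libraries in each row. 6 circles start at exon 2; hsa_circ_0001993 has 0, 1 and 0 reads with MPA against 4, 4 and 3 in control, and the circles with most reads overlap.

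Among the other hosts without the KRAB match, several DNA-binding and chromatin genes gave circles read in most libraries. ZNF148, also called ZBP-89, which binds GC-rich promoters, had 6, 11 and 8 reads with MPA against 3, 5 and 10 in control over 4 circles (log2 fold change 0.25, SE 0.561). Its main circle hsa_circ_0001333 (chr3:125032152-125050082, minus strand, exons 2 to 4) had 4, 6 and 7 against 3, 5 and 7 (-0.05, SE 0.658, edgeR adjusted p = 0.973). ZNF292, whose circle has been studied in endothelial cells, had 5, 8 and 4 reads against 6, 7 and 3 (-0.12, SE 0.694). Neither host passed (edgeR adjusted p = 0.946 for ZNF148 and 0.95 for ZNF292). Within ZNF292 the exonic hsa_circ_0004058 had 3, 2 and 2 reads against 6, 7 and 1, and the intronic hsa_circ_0004383 with the same end had 2, 5 and 0 against 0, 0 and 2. Both pairs overlapped.

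ZNF800 gave 1 circle, hsa_circ_0082096 (chr7:127013396-127017383, minus strand, exons 4 and 5), with 7 fingers inside it. It had 7, 6 and 2 reads with MPA against 8, 8 and 1 in control (log2 fold change -0.40, SE 0.66, edgeR adjusted p = 0.936). Library 3 was the lowest of each group. ZNF608 gave a circle of exon 2 alone, hsa_circ_0001523 (chr5:124036707-124036962, minus strand, 256 bases), with 9, 0 and 4 reads against 4, 3 and 2. It is shown as a joint within 1 exon, the capitals being the first and the lower case the last 15 bases of that exon.
ZNF608 hsa_circ_0001523: atgaaacagaagaagGTTGACCCCCTGTTT
Its relative ZNF609, whose circle hsa_circ_0000615 has been reported to act in myoblast growth, had 3, 3 and 3 reads with MPA against 4, 3 and 1 in control. That circle (chr15:64791492-64792365, plus strand, 874 bases) was classed as sense overlapping. Its log2 fold change at the filter of 2 reads was 0.01 (SE 0.993, edgeR adjusted p = 0.996).

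ZNF644, a partner of the H3 lysine 9 methyltransferases G9a and GLP, had 4, 4 and 3 reads with MPA against 1, 6 and 1 in control. ZNF394 had 3, 5 and 8 reads of the intronic hsa_circ_0001726 against 3, 4 and 2 (log2 fold change 0.53, SE 0.854). ZNF514 had 4, 2 and 3 against 2, 0 and 1 over 2 sense overlapping circles (1.23, SE 1.30). The groups overlapped in all of these, and for ZNF394 and ZNF514 the edgeR adjusted p was 0.987 at the filter of 2 reads. ZNF423, a SMAD cofactor in BMP signalling, had 3, 1 and 4 reads against 2, 3 and 1 over 3 circles. ZNF638, which binds RNA and takes part in HUSH silencing of foreign DNA, gave 3 circles within a transcript of 28 exons. The one with the most reads, hsa_circ_0055151 with exons 11 to 21, had 1, 0 and 1 reads with MPA against 1, 2 and 3 in control.

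**Figure D5:**
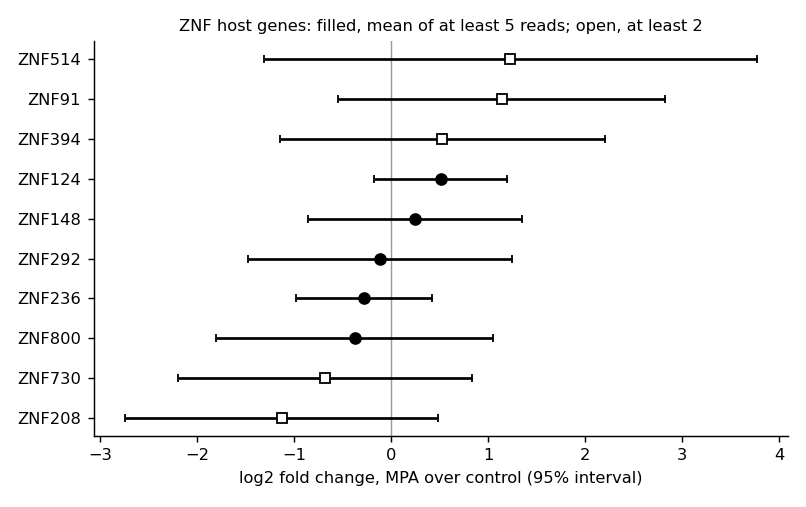
log2 fold change, MPA over control, with 95% intervals (x axis) for 10 ZNF hosts; filled points were tested at a mean of at least 5 reads and open squares at at least 2. Every interval crosses 0, with estimates between -1.13 for ZNF208 and 1.23 for ZNF514.

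Most of the remaining members were near the limit of detection. 27 of the 63 hosts had fewer than 6 reads over all libraries, and 40 (40.8%) of the ZNF circRNAs were read in 1 library only, against 48.8% of the circRNAs of other hosts. The 12 hosts with the most reads held 62.3% of the ZNF reads and ZNF124 and ZNF236 alone 26.8%. 11 ZNF circRNAs (11.2%) were read in all 6 libraries, against 5.28% of the others. In 43 hosts a single circRNA was listed. In the other 20, 40 of 55 circRNAs shared a start or an end with another circle of their host, so their reads are not independent of each other's splice site. Low-count examples with known roles were ZNF445, which protects imprints, with 2 reads in control library 1, and ZNF827, which acts at telomeres, with 3 circles and 8 reads.

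The genes through which KRAB zinc finger proteins silence chromatin gave few reads. Of 29 such genes, 12 gave 21 circRNAs, with 78 reads in MPA and 43 in control libraries, or 0.533% ± 0.181 against 0.369% ± 0.103 of the reads (SD, n = 3 each). PPHLN1, the periphilin subunit of the HUSH complex, was the 1 host tested, with 8, 7 and 14 reads with MPA against 5, 2 and 4 in control and no overlap. Its log2 fold change was 1.14 (SE 0.598, edgeR adjusted p = 0.946), which did not pass. The demethylase KDM1A had 1, 2 and 10 reads against 1, 4 and 1, and ATF7IP, the partner of SETDB1, had 3, 6 and 2 against 2, 3 and 0. Both overlapped.

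Zinc finger hosts under other names had almost as many reads as the ZNF hosts. 44 such hosts, among them ZBTB, ZMYM, KLF and GLIS genes, gave 88 circRNAs with 407 reads in MPA and 372 in control libraries, or 2.88% ± 0.411 against 3.13% ± 0.345 (SD, n = 3 each). The name pattern also allowed families such as ZDHHC, ZFYVE and ZFAND, and the kind of finger was not checked in these hosts. Of their 8 tested hosts 0 were called by edgeR and 1 had an unadjusted p under 0.05, beside 3 of all 180 hosts (1.67%). The median log2 fold change was -0.06 beside 0.03 for all 180. The 1 host was ZMYM2, named after its values were seen, with 15, 7 and 12 reads with MPA against 6, 2 and 3 in control (log2 fold change 1.38, SE 0.588, edgeR adjusted p = 0.946). ZBTB46 had 21, 29 and 23 reads with MPA against 24, 18 and 12 in control, and ZBTB44 had 13, 12 and 14 against 28, 10 and 13. GLIS3 had 16, 11 and 2 against 19, 5 and 14, and these last 3 hosts overlapped.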

How the data were processed

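circRNA sequencing of Ishikawa cells gave 6 libraries, 3 with MPA and 3 control. Per the file headers, the table deposited by the authors holds unnormalized counts, each the junction reads of a circRNA in a library, beside host gene, class, circBase identifier and predicted length. BWA, CASAVA 1.8 and hg19 are named in the submitters' processing notes. The circRNA caller, the treatment of reads matching several genes and the strand setting are not stated in the sources used here. Another 6 value columns were not used. Library totals ran from 3740 to 5454 reads, and intervals on shares or share ratios are exact binomial ones (95%) that cover counting error only.

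The ZNF members, the lists and the rules for naming genes were chosen with earlier results of these data known. Named were ZNF circRNAs past the filter, the 12 hosts with most reads, the 5 with most circRNAs, the 4 with the smallest p in each direction, hsa_circ_0000615, and 3 per list. Counts per circRNA, and sums per host gene, were fitted over the whole table with edgeR 4.0.16 in R 4.3.3 (TMM on all-junction-read totals, group term, robust quasi-likelihood, Benjamini-Hochberg FDR 0.05, mean of at least 5 reads), after testing on simulated data. Standard errors were the absolute log2 fold change divided by the square root of the quasi-likelihood F statistic. DESeq2 1.42.0, other filters and scalings, a replicate block and leaving out libraries were the alternatives. 10 circRNAs without a host name (0.0806% of reads) stayed out of host sums.

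Exons were assigned to a circle where a GENCODE release 29 transcript of the same gene name had consecutive exons with the table's span and predicted length, and all matching transcripts gave 1 sequence. No coordinates were converted. Fingers and KRAB stretches were counted in translated GENCODE coding sequences. The KRAB pattern as first written, with 2 residues before EW, matched no host, and was corrected to 3 after the data were seen. The list of zinc finger hosts under other names took 62 hosts by its name pattern, of which 18 without that kind of name were removed. The rest ran in Python 3.11.15 with pandas 2.3.3, scipy 1.17.1, matplotlib 3.10.9 and numpy 2.4.6.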

Additional observations from a re-analysis of the deposited data

How the results depend on the processing

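The counts of 0 called ZNF circRNAs and 0 called ZNF hosts held under DESeq2, library totals without TMM, both other filters and each library left out (0 to 0). Over the whole table the count was 1 circRNA and 1 host without control replicate 2 (range over left-out libraries 0 to 1 for both), and neither was a ZNF gene. With the replicate number as a replicate block 0 ZNF circRNAs and 0 ZNF hosts were called. Same-numbered MPA and control libraries correlated at -0.08, 0.15 and 0.32 over 91 circRNAs, and MPA library 1 did not correlate best with its own number. Over 180 hosts they correlated at 0.03, 0.08 and 0.17, and each MPA library correlated best with its own number. The labels do not pair samples by number, so the main fit had no block. These correlations do not settle whether the numbers pair samples.

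The difference in ZNF share, MPA minus control, was 0.380 percentage points and ran from 0.0581 to 0.554 with a library left out. It was 0.0342 among exonic circRNAs, as a share of exonic reads, and 0.253 without ZNF124. That in detected ZNF circRNAs was 7 and ran from 4.83 to 10.7, and it was 3 in the exonic class. For hosts with the KRAB pattern the share difference was 0.405 and ran from 0.352 to 0.444. It was 0.243 among exonic circRNAs as a share of exonic reads (0.222 as a share of all junction reads) and 0.278 without ZNF124. The cause of these shifts was not tested.

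Several small estimates changed sign. hsa_circ_0001333 of ZNF148 was 0.09 without MPA replicate 1, 0.01 without control replicate 2, 0.19 without control replicate 3, 0.0027 at a mean of at least 2 reads and 0.013 with no filter. hsa_circ_0000857 of ZNF236 was 0.36 without control replicate 1, hsa_circ_0004979 was -0.34 without control replicate 3, and hsa_circ_0082096 of ZNF800 was 0.027 without MPA replicate 3. Among hosts, ZNF148 was -0.08 without MPA replicate 2 and -0.11 without control replicate 1, and ZNF236 was 0.0029 without control replicate 2. ZNF292 was 0.14 without MPA replicate 3 and 0.17 without control replicate 2, and ZNF800 was 0.053 and 0.00076 without the same libraries. Over left-out libraries hsa_circ_0000857 ran from -0.79 to 0.36, hsa_circ_0004979 from -0.34 to 0.63, hsa_circ_0001333 from -0.27 to 0.19 and hsa_circ_0082096 from -0.95 to 0.027. As hosts, ZNF148 ran from -0.11 to 0.83, ZNF236 from -0.68 to 0.0029, ZNF292 from -0.52 to 0.17 and ZNF800 from -0.86 to 0.053. The others ran from 0.36 to 0.77 for ZNF124, from 0.57 to 1.74 for ZNF91, from 0.69 to 2.10 for ZNF514, from 0.27 to 0.78 for ZNF394, from -2.11 to -0.61 for ZNF208 and from -0.93 to -0.39 for ZNF730. All these are log2 fold changes of MPA over control, and none passed the FDR threshold under any alternative run.

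At 3740 to 5454 junction reads per library, 0 tested ZNF circRNAs had a 95% interval that excluded a 2-fold change, and most members were too rare to test.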
